A study of Homo sapiens with 6 samples.

Results

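The TRIM genes encode the tripartite motif proteins, and the 10 of them described here are the protein-coding genes of the deposited table whose name is TRIM followed by a number. They were 10 of 2885 genes in the table, and GENCODE 29 lists 78 protein-coding genes that match the same name rule. The other 68 were not in the table and were not analysed here. The members were therefore chosen by the comparison itself, because the authors' deposited table ends at an adjusted p of 0.0499 and holds no gene whose log2 fold change was smaller in size than 1. Differences between the groups are given for these genes as a description: fold changes and calls come from a fit over the whole table, and no call is read as a test of the members. In the authors' deposited table the member nearest to the fold limit was TRIM7, with a log2 fold change of -1.42, and the member with the largest adjusted p was TRIM31, at 2.87e-04.

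Transcripts were measured by RNA sequencing of RKO cells, a long-established line from a human colorectal carcinoma. The first group was 3 libraries of RKO cells whose labels give the genotype as KMT5A knockdown and the treatment as shKMT5A, a short hairpin RNA against KMT5A. The second was 3 libraries of RKO cells given as wild type and treated with shNC, the control hairpin. KMT5A is a methyltransferase that acts on histone H4, and the title of the series is about its methylation of IRF3, a transcription factor of the antiviral response, and about immune suppression in tumours. The labels do not say whether the hairpins or cultures differed between libraries, so the errors given are those between libraries and may be technical only.

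KMT5A itself went against the label. It had 4015, 3898 and 3297 normalized read counts in the libraries labelled shKMT5A, against 1298, 1245 and 1307 in the shNC libraries. Every library labelled shKMT5A was above every shNC library, a 2.91-fold difference of means. Directions below follow the labels, and the libraries labelled shKMT5A did not hold less KMT5A transcript. If labels or columns had been exchanged between the groups, every direction below would turn round, which was not tested. Reads assigned to the genes of the table numbered 1891460, 1906015 and 1980866 in the libraries labelled shKMT5A and 1363382 to 1369655 in the shNC libraries. The full depth of the libraries is unknown. Of 7 markers of colon epithelium 3 were in the table, the keratin genes KRT8, KRT18 and KRT19, present in every library, and all 3 were lower in the libraries labelled shKMT5A. The other 4 were not analysed here. Of 14 leukocyte markers 3 were in the table, with a summed level of 11.5 to 24.6 normalized counts in the libraries labelled shKMT5A and 30.5 to 36.6 in the shNC libraries. Of these, CD8A was higher (13.2 normalized counts on average in the libraries labelled shKMT5A and 0.64 in shNC), and GZMB (5.37 and 21.6 in the same groups) and CD79A (1.37 and 10.9) were lower. The table held 5 of 10 markers of fibroblasts and endothelium, with sums of 64.9 to 81.9 in the libraries labelled shKMT5A and 150.4 to 169.4 in the shNC libraries, 2 of them higher and 3 lower. COL3A1 had 65.7 normalized counts on average in the libraries labelled shKMT5A and 14.2 in shNC, CDH5 was at 0 in all shNC libraries, and DCN was at 0 in all libraries labelled shKMT5A. Their part in the results below was not tested. In such bulk RNA, fewer cells of a type and less RNA per cell cannot be told apart.

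Most TRIM proteins are ubiquitin ligases built from a RING domain, B-box domains and a coiled coil, followed by a variable end that recognises the target. Many are induced by interferon and act against viruses, either by binding viral parts or by tuning the sensors of foreign RNA and DNA. TRIM28, also called KAP1, has another task: KRAB zinc finger proteins bring it to DNA, where it recruits the histone methyltransferase SETDB1 and heterochromatin proteins and silences transposable elements and genes.

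Promoter windows of 3 genes are shown because the antiviral members were higher together and because interferon acts on many promoters through the interferon-stimulated response element, whose core is searched here as GAAANNGAAA. Each window is the RefSeq sequence of GRCh38.p14 from 250 bases before to 50 bases after a gene's start, printed 5′ to 3′ in the direction of transcription, with matches on either strand in capitals. TRIM21 lies at chr11:4393653-4393952 and TRIM5 at chr11:5685025-5685324, both on the minus strand. TRIM25, at chr17:56914000-56914299 on the minus strand, is shown as the member with the highest count and no match.
TRIM21: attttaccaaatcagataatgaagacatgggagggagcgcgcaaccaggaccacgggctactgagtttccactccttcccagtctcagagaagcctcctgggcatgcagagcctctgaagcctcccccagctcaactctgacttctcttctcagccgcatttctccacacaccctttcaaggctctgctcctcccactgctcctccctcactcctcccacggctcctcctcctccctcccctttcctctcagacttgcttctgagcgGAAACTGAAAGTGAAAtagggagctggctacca
TRIM5: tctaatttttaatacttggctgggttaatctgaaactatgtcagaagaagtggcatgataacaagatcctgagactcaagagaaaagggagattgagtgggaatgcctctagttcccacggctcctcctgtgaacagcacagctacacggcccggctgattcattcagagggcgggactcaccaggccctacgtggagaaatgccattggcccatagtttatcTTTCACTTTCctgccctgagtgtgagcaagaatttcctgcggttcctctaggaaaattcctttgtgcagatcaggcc
TRIM25: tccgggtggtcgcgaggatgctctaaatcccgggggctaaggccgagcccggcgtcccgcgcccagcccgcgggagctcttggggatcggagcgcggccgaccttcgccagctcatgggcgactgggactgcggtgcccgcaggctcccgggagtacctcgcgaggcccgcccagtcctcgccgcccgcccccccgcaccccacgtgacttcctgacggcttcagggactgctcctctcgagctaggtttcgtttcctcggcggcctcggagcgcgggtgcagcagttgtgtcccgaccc

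TRIM21 held 2 overlapping matches to GAAANNGAAA, GAAACTGAAA from base 18 after the start and GAAAGTGAAA from base 24. TRIM5 held 1 match on the opposite strand, printed as TTTCACTTTC, whose first base lies at -27 from the start. The table of sequences held windows for 8 of the 10 genes, 10 windows in all because TRIM7 has several starts. TRIM22 and TRIM28 were not among them, so the search did not cover these genes. Matches to GAAANNGAAA were present in 2 of these 10 windows and in 3.57% of all 35116 windows of the table. A second motif, TTCNNNGAA, to which STAT dimers bind, was found in 1 of the 10 windows, that of a TRIM7 start (TTCCAGGAA), and in 7.66% of all windows. It reads alike on both strands and overlapped no match to the first motif. A match describes letters in these windows and not binding in these cells.

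Of the 10 TRIM genes, 8 were higher and 2 were lower in the libraries labelled shKMT5A by limma over the whole table with an adjusted p under 0.05. By that rule 57.4% of all genes tested were higher and 42.6% were lower, and the authors had selected all of them as different. The higher genes were TRIM28 and all 7 members of the antiviral and innate immune list that were in the table, which has 13 genes. The lower genes were TRIM7 and TRIM9, which that list does not hold. The list was drawn up with earlier results of these data known, so the split is not read as one by antiviral function. None of the 10 overlapped between the groups, as was the case for 99.7% of the table.

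**Figure D1:**
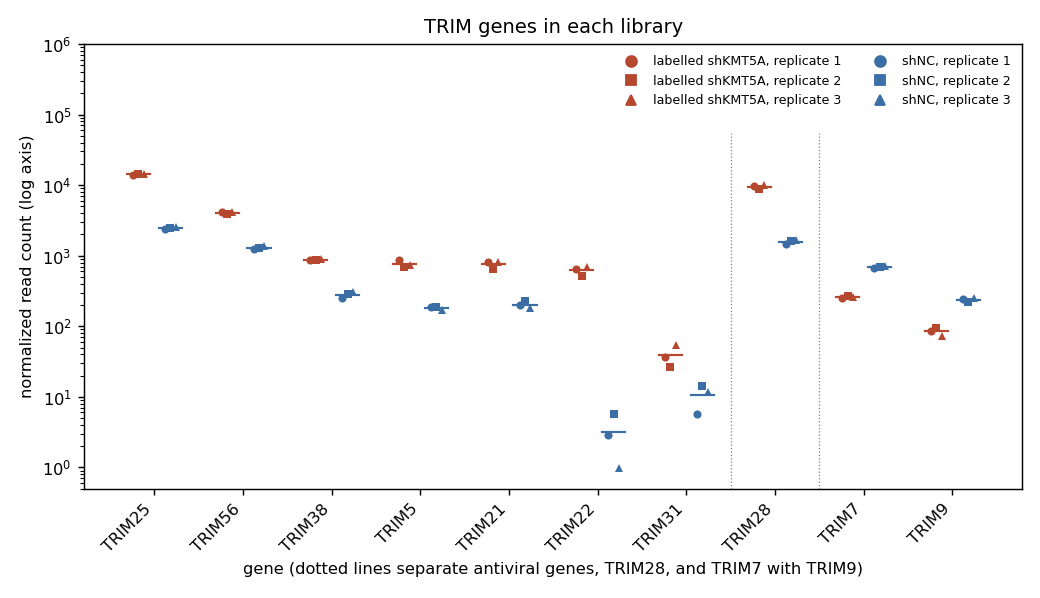
Normalized read count (log axis) of each TRIM gene in the 3 libraries labelled shKMT5A (left, red) and the 3 shNC libraries (right, blue), with a line at each group mean. TRIM25 and TRIM28 have the highest counts in both groups, TRIM22 is near 0 in shNC, and only TRIM7 and TRIM9 are lower in the libraries labelled shKMT5A.

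Of the ligases that act on RNA and DNA sensing, TRIM25 and TRIM56 had the highest counts among the antiviral members and TRIM31 the lowest. TRIM25 (ENSG00000121060, chromosome 17, 56836387 to 56914080, minus strand, GRCh38) is a ligase that works with the RNA sensor RIG-I and with the antiviral zinc finger protein ZAP, and it can also attach ISG15. It had 14065, 14303 and 14325 normalized counts in the libraries labelled shKMT5A, against 2375, 2501 and 2549 in the shNC libraries. The libraries labelled shKMT5A lay close together, with a coefficient of variation of 1.01%, the lowest of the 10 genes, and stood far above all shNC libraries. Means of 14231 ± 144 in the libraries labelled shKMT5A and 2475 ± 89.7 in shNC (SD, n = 3 each) gave a log2 fold change of 2.52 ± 0.045 (SE).

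TRIM56 (ENSG00000169871, chromosome 7, 101085439 to 101097967, plus strand) is a ligase linked to signalling from cytosolic DNA and double-stranded RNA. Its counts were 4130, 3943 and 4171 in the libraries labelled shKMT5A and 1245, 1267 and 1363 in the shNC libraries. The groups were well separated, with a log2 fold change of 1.66 ± 0.056 (SE). TRIM38 (ENSG00000112343, chromosome 6, 25962802 to 25991226, plus strand), which regulates signalling from Toll-like receptors and cytosolic sensors, had 875, 857 and 899 normalized counts in the libraries labelled shKMT5A and 255, 287 and 302 in the shNC libraries. Its log2 fold change of 1.64 ± 0.083 (SE) was the smallest among the higher members.

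TRIM31 (ENSG00000204616, chromosome 6, 30102897 to 30113106, minus strand), a ligase that acts on the adaptor MAVS and on the inflammasome protein NLRP3, was rare in every library. It had 36.6, 26.6 and 54.6 normalized counts in the libraries labelled shKMT5A, against 5.71, 14.4 and 11.8 in the shNC libraries. These values varied the most among the members in the libraries labelled shKMT5A (coefficient of variation 36.1%), and the lowest of them was still above the highest shNC value. The log2 fold change was 1.82 ± 0.38 (SE), and TRIM31 was the member that no longer passed with DESeq2 on the reads of 5 libraries. That run scaled libraries on the selected genes alone, and its median shift over all genes was -1.02. The authors' deposited log2 fold change of TRIM31 was 1.89. Its exons share 174 bases with the antisense gene TRIM31-AS1, 4.92% of its exon length, and no source used here says whether reads were counted by strand.

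The members that act on virus particles and viral genomes lie on the short arm of chromosome 11. TRIM5 (ENSG00000132256, 5663557 to 5938619, minus strand) encodes the factor that binds the capsid of incoming retroviruses. It had 859, 701 and 744 normalized counts in the libraries labelled shKMT5A and 185, 187 and 171 in the shNC libraries. All 3 libraries labelled shKMT5A were higher, with replicate 1 the highest, and the log2 fold change was 2.08 ± 0.096 (SE). TRIM21 (ENSG00000132109, 4384897 to 4393696, minus strand), the cytosolic receptor for antibody-coated viruses and an autoantigen known as Ro52, had 802, 639 and 814 normalized counts in the libraries labelled shKMT5A and 203, 227 and 180 in the shNC libraries. Replicate 2 was the lowest of its group and still far above the shNC libraries, and the log2 fold change was 1.88 ± 0.12 (SE).

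TRIM22 (ENSG00000132274, 5689689 to 5737089, plus strand), an interferon-induced gene whose protein represses transcription of HIV, differed most of all members. Its counts were 653, 521 and 685 in the libraries labelled shKMT5A, against 2.86, 5.78 and 0.983 in the shNC libraries. The shNC values stand for 3, 6 and 1 reads, so the gene was close to undetected there. The ratio of means was 193, and it was 323 without shNC replicate 2, the library with the most reads of the gene in its group. Without shNC replicate 3, the library with the fewest, it was 144. The log2 fold change on log2(value + 1) was 7.37 ± 0.37 (SE). TRIM22 lies inside the span of TRIM5 on the opposite strand, and the exons of the pair shared 0 bases in GENCODE 29, so that reads in the exons of one are not in those of the other. TRIM22 shares 642 exon bases with OR56B1, an olfactory receptor gene outside the table, and TRIM5 shares 382 with AC104389.4, which had 5.17 ± 3.83 normalized counts in the libraries labelled shKMT5A and 0.32 ± 0.55 in shNC.

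TRIM28, the corepressor, was higher as well. TRIM28 (ENSG00000130726, chromosome 19, 58544091 to 58550722, plus strand) had 9697, 8871 and 9903 normalized counts in the libraries labelled shKMT5A, against 1472, 1610 and 1660 in the shNC libraries. The groups lay far apart, and replicate 2 was the lowest of the libraries labelled shKMT5A. Means of 9490 ± 546 in the libraries labelled shKMT5A and 1581 ± 97.4 in shNC (SD, n = 3 each) gave a ratio of 6.0 and a log2 fold change of 2.59 ± 0.062 (SE). This was the second highest log2 fold change of the family, after TRIM22 and beside TRIM25. It was 0.71 above the median of the 7 antiviral members, 1.88, which ranged from 1.64 to 7.37. The median over all genes tested was 1.13, and over those that were higher 1.81. For TRIM28, DESeq2 run on recovered reads (5 libraries) gave a log2 fold change of 1.52, and its median shift over all genes against limma was -1.02. The exons of TRIM28 shared no base with another annotated gene. TRIM24, TRIM33 and TRIM66, which are related corepressors, were not in the table and were not analysed here.

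**Figure D2:**
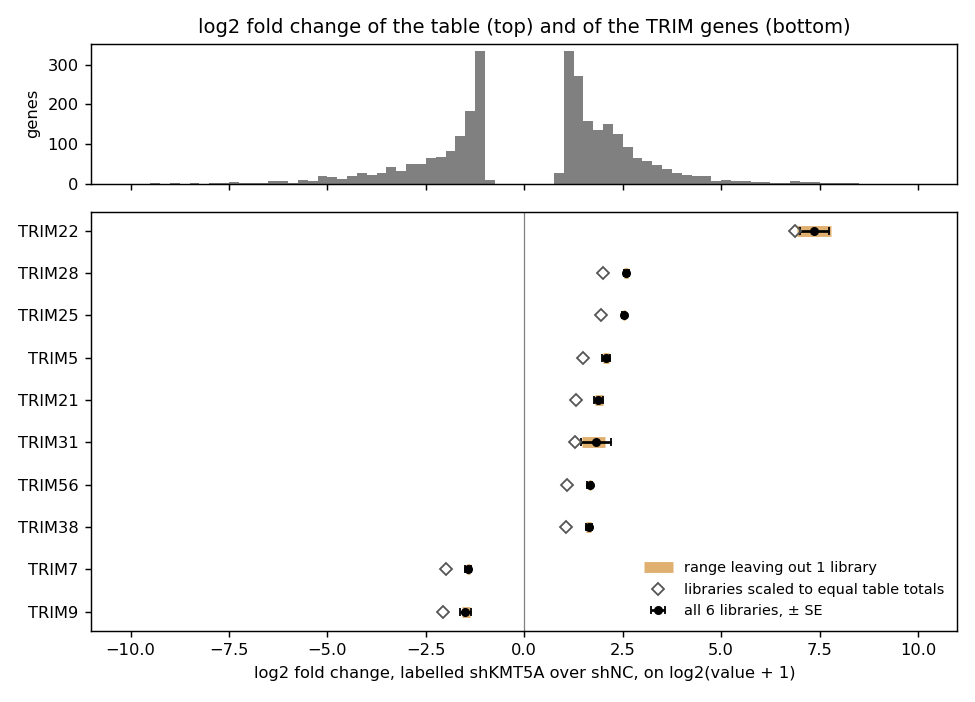
Top, number of genes of the table by log2 fold change (labelled shKMT5A over shNC). Bottom, log2 fold change of each TRIM gene with its standard error, the range when 1 library is left out (bar) and the value after scaling libraries to equal table totals (diamond). TRIM28 at 2.59 sits beside TRIM25 at 2.52, TRIM22 stands apart at 7.37, and all 10 genes keep their direction under this scaling.

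Zinc finger genes of the table were mostly lower, and a link to TRIM28 was not tested. These were 103 protein-coding genes named ZNF and a number, a group taken up after values were known. In the libraries labelled shKMT5A 98 were lower and 5 higher, whereas 42.6% of all genes tested were lower. Their median log2 fold change was -3.29, against -1.66 over all genes with a negative fold change. On chromosome 19, which also carries TRIM28, 78 of 80 zinc finger genes were lower. The summed level of the 98 lower genes was 3118, 2869 and 3149 normalized counts in the libraries labelled shKMT5A, against 16400, 17137 and 16264 in the shNC libraries. The table does not say which of these genes encode a KRAB domain. Within 500 kb of TRIM28 the table held 3 other genes, all lower in the libraries labelled shKMT5A. ZNF274, a zinc finger gene, had 169 ± 19.05 normalized counts there and 643 ± 17.0 in shNC. ZNF329 had 28.5 ± 6.13 in the libraries labelled shKMT5A and 128 ± 8.0 in shNC, and the non-coding gene listed as AC012313.8 had 14.3 ± 3.25 in the libraries labelled shKMT5A and 30.95 ± 4.0 in shNC.

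Of 20 partners of TRIM28 in silencing, among them SETDB1 and heterochromatin proteins, 1 was in the table. This was UHRF1, which directs maintenance DNA methylation, with 1093, 1109 and 1138 normalized counts in the libraries labelled shKMT5A and 2251, 2404 and 2490 in the shNC libraries. UHRF1 was lower in all libraries labelled shKMT5A, opposite to TRIM28, with a log2 fold change of -1.10 ± 0.059 (SE). The other 19 partners were not in the table and were not analysed here.

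TRIM7 and TRIM9 were the members with lower values. TRIM7 (ENSG00000146054, chromosome 5, 181193924 to 181205293, minus strand) encodes a ligase first described as a partner of glycogenin, the primer of glycogen synthesis. It had 251, 270 and 256 normalized counts in the libraries labelled shKMT5A, against 678, 684 and 719 in the shNC libraries. Both groups were tight, and every library labelled shKMT5A was below every shNC library, with a log2 fold change of -1.42 ± 0.076 (SE). TRIM9 (ENSG00000100505, chromosome 14, 50975262 to 51096061, minus strand), a ligase best known from neurons, where it acts in axon guidance, had 86.9, 94.2 and 72.5 in the libraries labelled shKMT5A and 240, 224 and 253 in the shNC libraries. Its log2 fold change was -1.49 ± 0.13 (SE). The exons of TRIM7 share 196 and 336 bases with 2 antisense genes, AC008443.4 and AC008443.5, which are not in the table.

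Levels of different genes were compared per kilobase of exon length. In the libraries labelled shKMT5A TRIM28 came first with 2353 ± 135 normalized reads per kilobase, followed by TRIM25 with 1498 ± 15.1 (SD, n = 3). In shNC the same genes led, TRIM28 with 392 ± 24.1 and TRIM25 with 260 ± 9.45. Without division by length TRIM25 was above TRIM28, because its exon length of 9501 bases exceeds the 4034 bases of TRIM28. The ratio of TRIM28 to TRIM25 per kilobase was 1.62, 1.46 and 1.63 in the libraries labelled shKMT5A and 1.46, 1.52 and 1.53 in the shNC libraries, and its ranges overlapped, while the ratio of means between the groups was 6.0 for TRIM28 and 5.75 for TRIM25.

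Below this pair, TRIM21 with 390 ± 50.7 and TRIM56 with 365 ± 10.9 normalized reads per kilobase followed in the libraries labelled shKMT5A, and their ranges overlapped. TRIM5 had 160 ± 16.9, TRIM22 103 ± 14.4 and TRIM38 93.2 ± 2.26 per kilobase, and the ranges of TRIM22 and TRIM38 overlapped. TRIM7 had 35.3 ± 1.34 per kilobase, and TRIM31 and TRIM9 were lowest with 11.1 ± 4.02 and 9.45 ± 1.23, again with overlapping ranges. In shNC the order differed in several places. TRIM56 stood above TRIM21, with overlapping ranges as in the other group, and TRIM9, at 26.7 ± 1.59 per kilobase, was above TRIM31, at 3.01 ± 1.27, without overlap. TRIM7, at 94.6 ± 3.04 per kilobase, stood in place 5, where its range overlapped that of TRIM21 at 105 ± 12.3 and was above that of TRIM5 at 37.6 ± 1.78. TRIM22 was last in shNC with 0.532 ± 0.40 per kilobase, against place 6 in the libraries labelled shKMT5A.

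**Figure D3:**
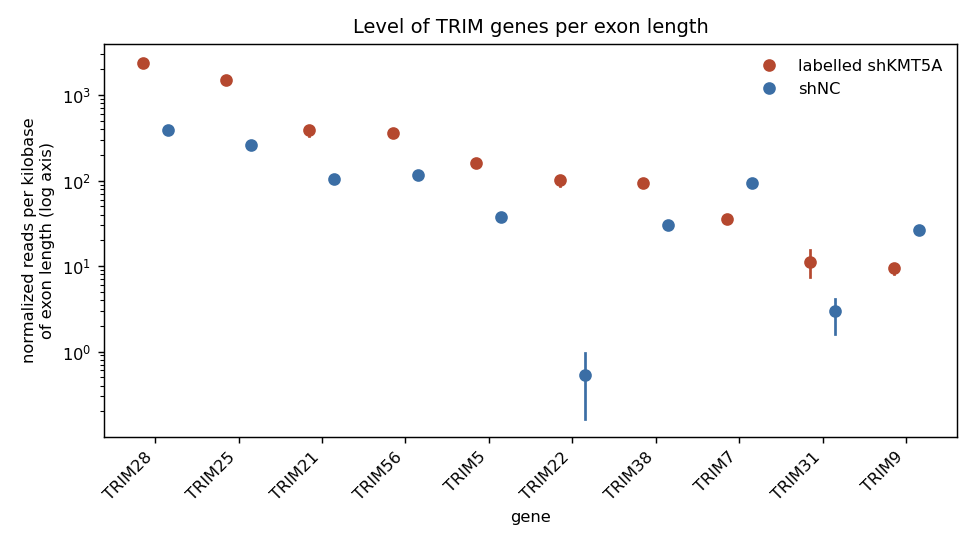
Mean normalized reads per kilobase of exon length (log axis) of each TRIM gene in the libraries labelled shKMT5A (left, red) and shNC (right, blue), with lines from the lowest to the highest library. TRIM28 and TRIM25 are first and second in both groups, while TRIM22 holds place 6 in the libraries labelled shKMT5A and the last place in shNC.

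TRIM25 made up most of the antiviral TRIM reads. The summed level of the 7 antiviral members was 21422, 20990 and 21692 normalized counts in the libraries labelled shKMT5A, against 4271, 4488 and 4577 in the shNC libraries. The share of TRIM25 in that sum was 65.7%, 68.1% and 66.0% in the libraries labelled shKMT5A and 55.6%, 55.7% and 55.7% in the shNC libraries. The ranges did not overlap, and TRIM25 thus took a larger part of the sum in the libraries labelled shKMT5A.

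Within the libraries labelled shKMT5A most higher members were lowest in the same replicate. Of the 8 higher TRIM genes, 7 had their lowest value in replicate 2, and the exception was TRIM25, which was lowest in replicate 1. Among all 1656 genes with a positive fold change, 37.1% were lowest in replicate 2. Of the genes given below, RIGI, ISG15 and PML were also lowest in replicate 2, and ZC3HAV1 was lowest in replicate 3.

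Relatives of the family under other names went both ways. Of 12 such genes 4 were in the table, with 2 higher and 2 lower. PML, which is TRIM19 and builds the nuclear bodies named after it, had 2668, 2274 and 2532 normalized counts in the libraries labelled shKMT5A, against 463, 493 and 496 in the shNC libraries, a log2 fold change of 2.36 ± 0.073 (SE). CMYA5, a large muscle-associated protein, had 26.2 ± 4.81 in the libraries labelled shKMT5A and 10.3 ± 2.49 in shNC (SD, n = 3 each). TRIML2, a TRIM-like protein without a RING domain, had 10.5 ± 3.82 in the libraries labelled shKMT5A and 78.6 ± 17.0 in shNC.

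The other lower relative was RNF135, also called Riplet, a ligase that attaches ubiquitin to RIG-I. RNF135 had 122, 120 and 105 normalized counts in the libraries labelled shKMT5A, against 291, 263 and 296 in the shNC libraries. All libraries labelled shKMT5A were below all shNC libraries, with a log2 fold change of -1.28 ± 0.11 (SE). TRIM25 and RNF135, which both act on RIG-I, thus lay on opposite sides, 2.52 and -1.28 on the log2 scale.

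Of 16 sensors and signalling genes around the antiviral ligases 10 were in the table, 9 higher and 1 lower. Over all genes tested 57.4% were higher. The lower gene was RNF135, which the list of relatives also holds. The median log2 fold change of the 10 was 2.99, against 1.13 over all genes tested and 1.81 over those with a positive fold change. RIGI (DDX58 in the table), the cytosolic RNA sensor, had 7602, 6572 and 7323 normalized counts in the libraries labelled shKMT5A and 330, 289 and 286 in the shNC libraries, a larger log2 fold change (4.57 ± 0.078, SE) than those of TRIM25 and RNF135. ZC3HAV1, which encodes ZAP, had 4661, 4396 and 4341 in the libraries labelled shKMT5A and 1669, 1637 and 1753 in the shNC libraries. ISG15, the modifier that TRIM25 can attach, had 17628 ± 1762 normalized counts in the libraries labelled shKMT5A and 1272 ± 62.8 in shNC (SD, n = 3 each). On the log2 scale TRIM25 (2.52) and TRIM56 (1.66) were higher by less than RIGI and ISG15 (3.79). They were higher by more than ZC3HAV1 (1.40). MAVS, TBK1, IRF3, IRF7, CGAS and STING1 were not in the table and were not analysed here.

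**Figure D4:**
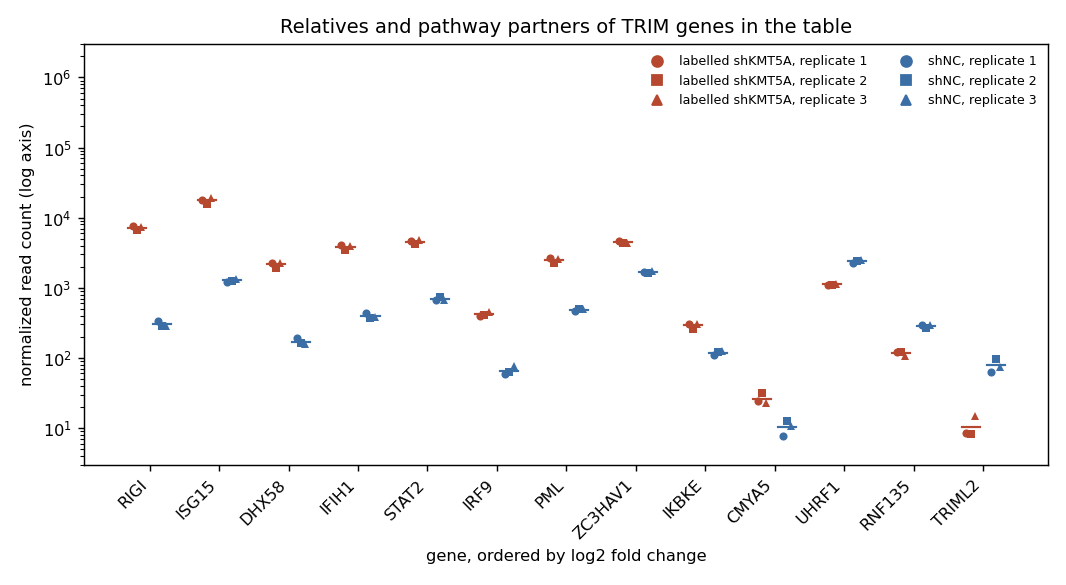
Normalized read count (log axis) of TRIM relatives, 9 sensors and signalling genes and the TRIM28 partner UHRF1 in each library labelled shKMT5A (left, red) and each shNC library (right, blue), ordered by log2 fold change. RIGI has the largest fold change, 4.57, and UHRF1, RNF135 and TRIML2 are lower in the libraries labelled shKMT5A.

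Among 2026 protein-coding genes outside the family, the 3 smallest root mean square distances to the TRIM28 profile over the 6 libraries, on the log2 scale and centred on shNC, included those of UBE2L6 (0.048), the conjugating enzyme of ISG15, and ISG20 (0.085), an antiviral exonuclease. UBE2L6 had 5023, 4292 and 5232 normalized counts in the libraries labelled shKMT5A, against 739, 783 and 840 in the shNC libraries, with replicate 2 lowest as for TRIM28. The nearest profiles to TRIM25, the antiviral member with the highest mean, were those of B3GALT5, a galactosyltransferase (0.039), KLF6, a transcription factor (0.056), and ISG20 (0.056). ISG20 was among the 3 nearest genes of both.

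The members also differed in their surroundings. Within 500 kb of TRIM38 the table held 10 other genes, all higher in the libraries labelled shKMT5A, namely 8 histone genes, which have near-identical copies and are uncertain for that reason, and the butyrophilin genes BTN3A1 and BTN3A3. HIST1H2AC (now H2AC6) had 723 ± 113 normalized counts in the libraries labelled shKMT5A and 115 ± 21.2 in shNC, and BTN3A3 had 526 ± 53.5 in the libraries labelled shKMT5A and 155 ± 9.85 in shNC. TRIM31 lies in the MHC region, where 9 other table genes fell within that distance, 6 higher and 3 lower, and HLA-E, an MHC class I gene whose reads can be shared with related HLA genes, had 7058 ± 206 in the libraries labelled shKMT5A and 2710 ± 14.6 in shNC. Around TRIM7 the table held 3 other genes within 500 kb, 1 higher and 2 lower. BTNL9, a butyrophilin-like gene, was one of the lower, with 71.3 ± 10.6 normalized counts in the libraries labelled shKMT5A and 197 ± 26.0 in shNC. All 10 table genes around TRIM38 were thus higher and all 3 around TRIM28 lower, against 57.4% higher and 42.6% lower over all genes tested. Other members also had neighbours on 1 side only. All were higher around TRIM22 (5 genes), TRIM25 (2), and TRIM56, TRIM21 and the lower member TRIM9 (1 each). Around TRIM5, 5 were higher and 1 lower. Those around TRIM38 were mostly histone genes. ZNF274 and ZNF329 around TRIM28 are zinc finger genes of chromosome 19, of which most in the table were lower. These neighbours were chosen after values were seen, and a link to the members was not tested.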

How the data were processed

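Each deposited signal value is a gene's read count, which the authors had scaled with a single factor in each library. The values show this, since 100% of those in a column came out whole after division by the worth of 1 read, to within 0.001. The submitters' processing notes list GRCh38 as the build and HISAT2 2.0.5 among the tools. They also list featureCounts 1.5.0-p3, and DESeq2 1.20.0 as well as CASAVA 1.8 and fastp. The authors also deposited log2 fold changes and p-values from their comparison. The gene lengths in the file equal the exon lengths of GENCODE 29 for all 10 TRIM genes.

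All 2885 genes were fitted together with limma 3.58.1 (trend, robust; R 4.3.3) on log2(value + 1), keeping a mean of at least 1 normalized count, with Benjamini-Hochberg adjustment and a threshold of 0.05. All 10 TRIM genes passed that filter. The fit had been tested on simulated data in which most genes did not differ between the groups. All genes of the deposited table had been selected as different, so that test does not cover this setting. A fold change on log2(value + 1) understates that of low genes. Whole reads were used for 5 libraries with edgeR 4.0.16 and DESeq2 1.42.0. Replicate 3 labelled shKMT5A, where 1 read is worth 0.994, was left out of these runs. Its values also came out whole, so leaving it out was a choice. Replicates varied by 2.20 to 9.57 times what counting noise alone gives (variance ratio). All TRIM genes were named, as were up to 4 genes of each list with the highest means and the 3 nearest profiles of TRIM28 and of TRIM25. Some genes that this rule names are not reported here. The members and lists were chosen with earlier results of these data known. Genes named as neighbours on the chromosome, the zinc finger genes and the promoter motifs were chosen after values were seen.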

Additional observations from a re-analysis of the deposited data

How the results depend on the processing

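Of the TRIM genes, 8 were higher and 2 lower in the libraries labelled shKMT5A under every alternative run, except that 7 were higher with DESeq2 on the reads of 5 libraries, where TRIM31 no longer passed (log2 fold change 0.53). No TRIM gene changed direction. The authors had selected these genes in the same libraries, so stable directions are largely built in. Leaving out 1 library gave 8 higher and 2 lower TRIM genes each time, 1645 to 1653 higher and 1225 to 1228 lower genes in the table, and a log2 fold change of TRIM28 of 0.54 to 0.74 above the median of the antiviral members, against 0.71 with all libraries. DESeq2 called 786 genes of the table higher and 1229 lower, against 1655 and 1228 with limma. Each gene's log2 fold change was also compared with that of the main limma fit. The median of these shifts over all genes was -0.23 with equal medians, -0.56 with equal totals, -0.58 with TMM, -0.62 with edgeR and -1.02 with DESeq2. Each of these runs scaled libraries on the genes of the table alone, all of which the authors had selected as different. Smaller fold changes under them therefore cannot be told apart from a change of scale. TRIM28 had a log2 fold change of 2.01 with equal totals and 1.99 with TMM, and TRIM38 1.07 and 1.04. Of the alternatives run, DESeq2 gave the smallest log2 fold changes of these genes and of TRIM56, 1.52 for TRIM28, 0.61 for TRIM56 and 0.59 for TRIM38. The place of TRIM28 in the libraries labelled shKMT5A was 1 per kilobase and 2 without division by length. The replicate block gave the same counts, 8 and 2 TRIM genes and 1655 and 1228 genes of the table. Same-numbered libraries did not deviate together (correlations -0.036, -0.031 and 0.008), so the numbers were not taken as pairs, and shKMT5A replicate 1 correlated best with shNC replicate 2 (0.043). The low counts of TRIM22 in shNC and of TRIM31 limit how closely their fold changes are known.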
